A study of Mus musculus with 8 samples.

Results

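The 36 genes described here encode enzymes of fatty acid oxidation and ketone body metabolism, together with other established targets of the nuclear receptor PPARA. They were taken by gene symbol from a list of genes with these roles. All 36 had a probe set naming them alone, out of 19937 genes analysed, and each was measured by 1 probe set. Their RNA was measured at a single time point on whole-transcript arrays, in cultured primary hepatocytes of male BALB/c mice. The 8 arrays formed 4 groups of 2. The combined group came from mice homozygous for knockout of heme oxygenase 1 (HO1-/-) and carried a lentiviral short hairpin RNA (shRNA) against heme oxygenase 2 (HO2). The HO1 knockout group was HO1-/- with a scrambled shRNA. The HO2 knockdown group was HO1+/+ with the HO2 shRNA. The control group was HO1+/+ with the scrambled shRNA. Every group, controls included, went through lentiviral transduction, 3 days of puromycin selection and 1 µM dexamethasone for 30 min, and was harvested 28 h later. A single hairpin served for the HO2 knockdown. The labels call the replicates biological without naming animals or cultures, so the spread behind each p-value may be partly technical. HO1 genotype and the hepatocyte preparation it came from cannot be told apart.

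Fatty acids enter hepatocytes through carriers such as the products of Cd36 and Slc27a2, are held in the cytosol by the binding protein encoded by Fabp1, and are activated to acyl-CoA. Long chains cross into mitochondria through the carnitine shuttle (Cpt1a, Slc25a20, Cpt2) and are shortened there in repeated cycles of dehydrogenation, hydration, oxidation and thiolysis. Peroxisomes shorten very long and branched chains with their own enzymes. PPARA, a receptor for fatty acids that is abundant in liver, binds DNA together with the retinoid X receptor at paired AGGTCA-type sites and switches on many genes of both organelles, for example during fasting. Acyl-CoA thioesterases (the Acot genes) release free fatty acids from acyl-CoA.

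The promoters of the 4 members with the smallest p in HO2 knockdown against control are shown because these genes carry the main finding. Each is the 250 bases before the RefSeq start on assembly GRCm38.p6, written 5′ to 3′ on the gene's strand. They lie at chr2:126552774-126553023 (Slc27a2, plus strand), chr6:71199629-71199878 (Fabp1, plus strand), chr16:21787835-21788084 (Ehhadh, minus strand) and chr5:17835897-17836146 (Cd36, minus strand). Capitals mark AGGTCA on either strand (written TGACCT when it lies on the opposite strand) and the paired motif AGGNCANAGGNCA.
Slc27a2: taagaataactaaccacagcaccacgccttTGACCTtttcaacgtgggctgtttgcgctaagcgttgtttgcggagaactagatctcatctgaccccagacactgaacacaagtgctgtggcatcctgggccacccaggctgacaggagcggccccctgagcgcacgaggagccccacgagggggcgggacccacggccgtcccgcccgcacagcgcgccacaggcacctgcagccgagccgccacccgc
Fabp1: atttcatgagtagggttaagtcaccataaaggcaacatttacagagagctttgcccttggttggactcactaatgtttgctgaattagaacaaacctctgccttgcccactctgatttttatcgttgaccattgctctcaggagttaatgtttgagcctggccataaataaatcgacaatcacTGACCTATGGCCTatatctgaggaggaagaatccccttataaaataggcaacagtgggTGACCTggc
Ehhadh: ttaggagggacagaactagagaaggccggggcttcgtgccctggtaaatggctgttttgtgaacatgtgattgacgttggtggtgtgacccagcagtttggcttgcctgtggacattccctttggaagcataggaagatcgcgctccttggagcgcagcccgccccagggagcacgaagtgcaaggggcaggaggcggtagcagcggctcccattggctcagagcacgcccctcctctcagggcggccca
Cd36: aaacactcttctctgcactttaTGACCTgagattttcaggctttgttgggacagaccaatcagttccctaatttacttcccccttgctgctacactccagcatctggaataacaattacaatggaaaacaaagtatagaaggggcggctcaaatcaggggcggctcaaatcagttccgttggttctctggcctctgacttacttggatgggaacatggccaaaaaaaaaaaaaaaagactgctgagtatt
RefSeq promoters, 250 bases before to 50 after the start, were at hand for 30 of the 36 genes, as 32 promoters. The perfect pair AGGTCANAGGTCA was in 0 of the 32, against 0.0396% of 32851 mouse promoters. The looser pair AGGNCANAGGNCA was in 1, that of Fabp1, 67 to 55 bases before the start, against 0.381% of all promoters. Single AGGTCA motifs, which overlap the pairs, were in 11 of the 32 (34.4%), belonging to 10 genes, against 16.3% of all promoters. Such matches are letters in a window and not measured binding.

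The shRNA target was checked first. Hmox2, which encodes HO2, read 9.26 and 9.32 in combined arrays, 11.59 and 11.60 in HO1 knockout arrays, 8.32 and 8.38 in HO2 knockdown arrays, and 11.41 and 11.57 in control arrays, all as log2 signal. It fell to 0.114 of the control level in HO2 knockdown and to 0.203 of the HO1 knockout level in combined cells, so less of it was lost in combined cells (interaction 0.84, adjusted p = 3.86e-05). Hmox1, which encodes HO1, was higher under the HO1-/- label. It read 11.98 and 11.97 in HO1 knockout arrays against 11.46 and 11.40 in control arrays. The deleted stretch of the gene is not given in the sources used here, so this probe set does not check the genotype, and every HO1 direction below rests on the labels. Replicates correlated at 0.997 to 0.999 over the 19937 genes analysed and arrays of different groups at 0.975 to 0.989. The 15 hepatocyte markers averaged 11.44 and 11.46 in control arrays, where albumin (Alb) was bright at 13.32 and 13.40 but Serpinc1, the gene of antithrombin, was dimmer, with 42.9% of genes below it.

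Knockdown of HO2 in HO1+/+ cells raised most of these genes. Of the 36, 20 rose, 1 fell and 15 were not called at an adjusted p under 0.05, where 16.5% of all genes tested were called higher and 16.7% lower. The median log2 fold change of the members was 0.26, against -0.07 over all genes. Those that rose included 3 of 4 uptake, binding and droplet genes, all 5 thioesterases, 3 of 5 peroxisomal enzymes and 6 of 14 mitochondrial enzymes. Centring each array on its median changed the share of all called genes that were higher to 62.9%, against 49.7% as deposited. Hepatocyte marker genes also moved, 13 of 15 higher and 1 lower, with a median log2 fold change of 0.84. The mean log2 signal of that list was 12.54 and 12.55 in HO2 knockdown arrays against 11.44 and 11.46 in control arrays. Stellate cell and fibroblast markers were higher in 5 of 13 and lower in 2, and endothelial markers higher in 4 of 9 and lower in none. The part of these lists in the results was not tested. In arrays of whole cultures, fewer cells of a type and less RNA per cell cannot be told apart.

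Uptake and binding genes moved most. Slc27a2, which encodes a very long chain acyl-CoA synthetase and fatty acid transporter, read 11.46 and 11.48 in HO2 knockdown arrays against 9.0 and 9.07 in control arrays. Its level rose 5.39-fold (log2 fold change 2.43, SE 0.0600, adjusted p = 9.68e-14), and no array of one group reached the other. Fabp1, the liver fatty acid binding protein, read 8.06 and 8.24 in HO2 knockdown arrays against 5.75 and 5.78 in control arrays. It rose 5.22-fold (log2 fold change 2.39, SE 0.128, adjusted p = 8.78e-10), although only 12.1% of genes were dimmer than it in control arrays, and dim signals understate folds. Cd36, a scavenger receptor that takes up fatty acids, read 10.60 and 10.64 in HO2 knockdown arrays against 9.17 and 9.28 in control arrays. It rose 2.63-fold (log2 fold change 1.40, SE 0.0603, adjusted p = 7.53e-11). In the same comparison Plin2, which coats lipid droplets, was not called, with a difference of -0.09 (95% interval -0.17 to -0.01, adjusted p = 0.0836).

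**Figure D1:**
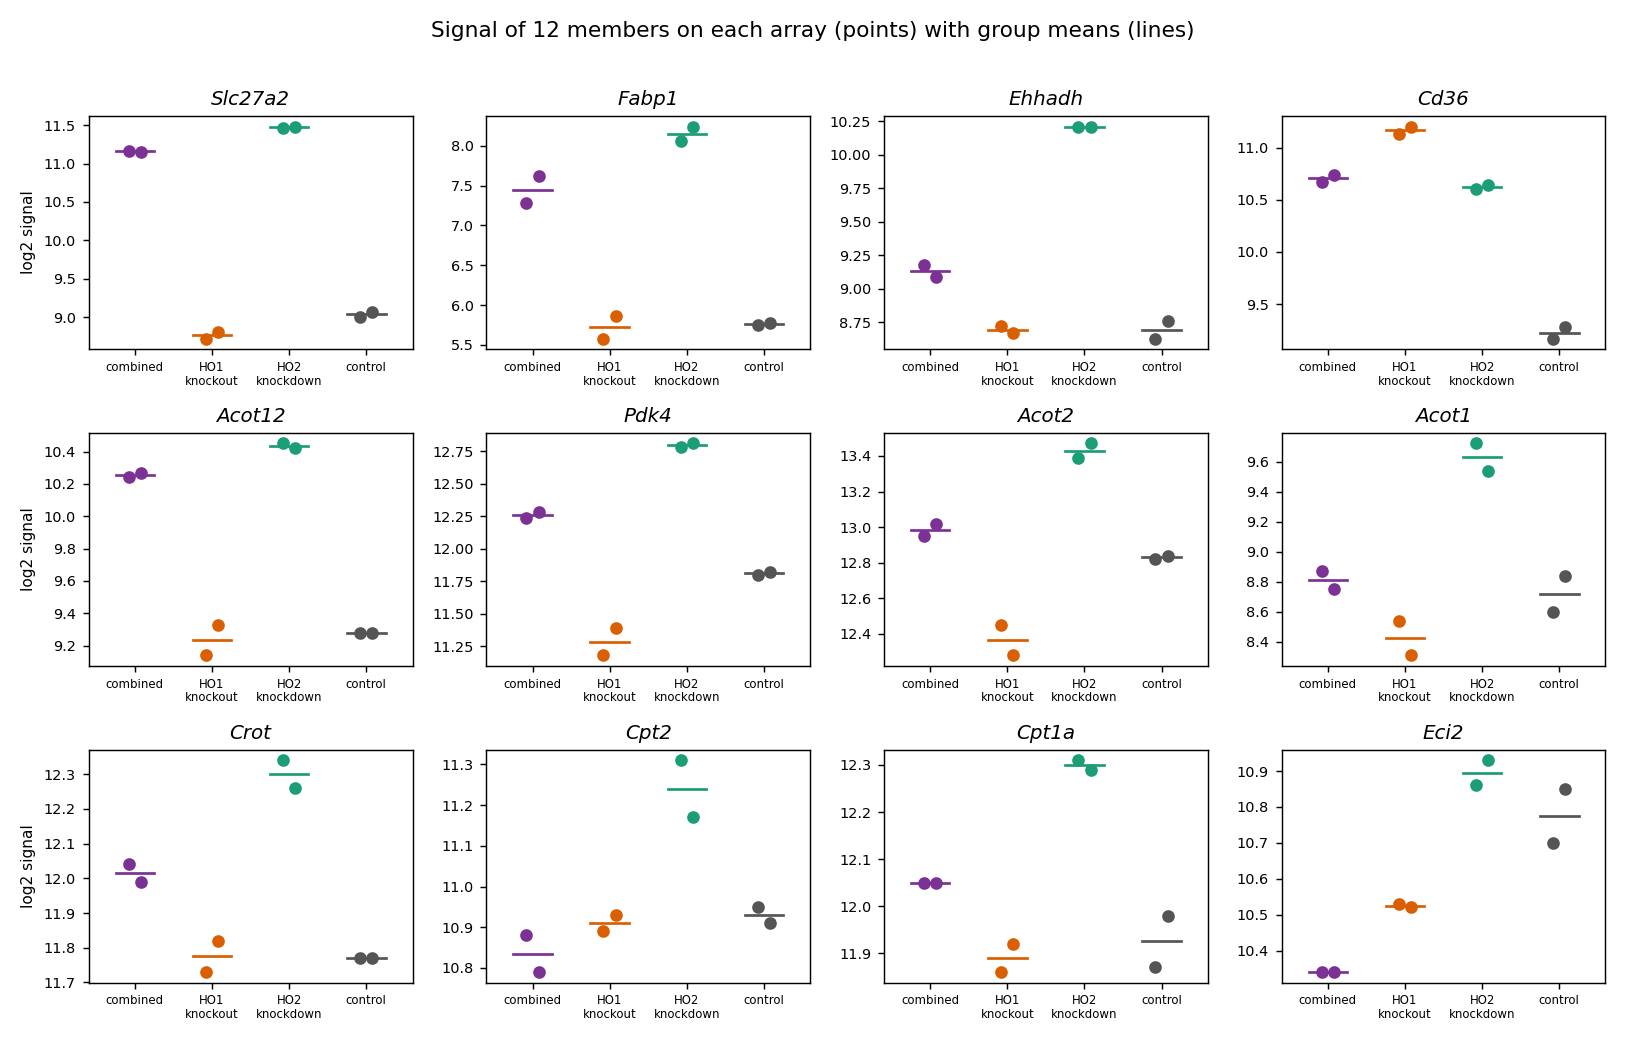
Log2 signal (y axis) of 12 members in the 4 groups (x axis), 1 point an array with a line at each group mean, on y axes that do not start at 0. Slc27a2 and Fabp1 are high in both groups with HO2 shRNA, while Cd36 is lowest in the control arrays, at 9.17 and 9.28.

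All 5 thioesterases rose with HO2 knockdown, by 0.36 to 1.15 on the log2 scale. Acot12, a cytosolic acetyl-CoA hydrolase, read 10.45 and 10.42 in HO2 knockdown arrays against 9.28 and 9.28 in control arrays. That is a 2.22-fold rise (log2 fold change 1.15, SE 0.0698, adjusted p = 3.79e-09) with no overlap. Acot1, the cytosolic long chain form, read 9.72 and 9.54 in HO2 knockdown arrays against 8.60 and 8.84 in control arrays (log2 fold change 0.91, adjusted p = 3.8e-06). Acot2, its mitochondrial counterpart, read 13.39 and 13.47 in HO2 knockdown arrays against 12.82 and 12.84 in control arrays (log2 fold change 0.60, adjusted p = 1.52e-07). Acot1, Acot2, Acot3 and Acot4 are closely related neighbours in the genome, so their probe sets may share signal and the 4 are not independent evidence. The smallest of the rises, that of Acot3 (0.36, adjusted p = 0.0146), was not called without HO2 knockdown replicate 1 (adjusted p = 0.223).

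Among peroxisomal enzymes Ehhadh stood out. It encodes the bifunctional enzyme that carries out the hydratase and dehydrogenase steps, and it read 10.21 and 10.21 in HO2 knockdown arrays against 8.63 and 8.76 in control arrays. It rose 2.85-fold (log2 fold change 1.51, SE 0.0738, adjusted p = 3.16e-10), with the arrays of the groups well apart. Crot, which makes carnitine esters of the chains that leave the peroxisome, read 12.34 and 12.26 in HO2 knockdown arrays against 11.77 and 11.77 in control arrays (log2 fold change 0.53, adjusted p = 3.03e-07). Acaa1b, a peroxisomal thiolase, read 8.56 and 8.05 in HO2 knockdown arrays against 7.73 and 7.68 in control arrays. Its rise of 0.60 (adjusted p = 0.00186) leaned on HO2 knockdown replicate 1, without which it was not called (adjusted p = 0.0552), and its near copy Acaa1a was not called (0.08, 95% interval -0.09 to 0.24, adjusted p = 0.475). Hsd17b4, the other bifunctional enzyme, had a difference of 0.14 (adjusted p = 0.0569). Pex11a, which takes part in peroxisome division, rose by 0.24 (adjusted p = 0.011). That call was lost without HO2 knockdown replicate 1 and without control replicate 1 (adjusted p up to 0.0948).

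Of the 14 mitochondrial enzymes, 6 rose (Cpt1a, Cpt2, Slc25a20, Acadm, Hadha and Hadhb), 1 fell (Etfdh) and 7 were not called. Acadm, the medium chain acyl-CoA dehydrogenase, read 11.71 and 11.70 in HO2 knockdown arrays against 11.14 and 11.20 in control arrays. Its rise of 0.53 (SE 0.0517, adjusted p = 7.97e-07) was the largest of the 14. All 3 genes of the carnitine shuttle rose. Cpt1a, the outer membrane transferase, read 12.31 and 12.29 in HO2 knockdown arrays against 11.87 and 11.98 in control arrays (log2 fold change 0.37, adjusted p = 1.28e-05). Slc25a20, the carnitine carrier of the inner membrane, read 10.24 and 10.24 in HO2 knockdown arrays against 9.86 and 9.90 in control arrays (log2 fold change 0.36, adjusted p = 0.000272). Cpt2, the inner membrane transferase, rose by 0.31 (adjusted p = 0.000516). Hadha and Hadhb encode the subunits of the trifunctional protein, and they rose by 0.25 and 0.28 (adjusted p = 0.000879 and 0.00108). Etfdh, which passes electrons from the dehydrogenases to the respiratory chain, fell by 0.22 (adjusted p = 0.00364). It read 10.72 and 10.70 in HO2 knockdown arrays against 10.93 and 10.93 in control arrays.

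Set side by side, the 5 peroxisomal enzymes had a median log2 fold change of 0.53 with HO2 knockdown and the 14 mitochondrial enzymes one of 0.14. For scale, the median of each list was also taken on single arrays, over deviations from each gene's mean. The difference in that median between replicate arrays of a group had an SD of 0.0993 for peroxisomal and 0.0508 for mitochondrial enzymes. The share that rose was 3 of 5 for peroxisomal enzymes and 6 of 14 for mitochondrial enzymes. Without HO2 knockdown replicate 1 the peroxisomal median was 0.35. With repeated quantile normalization the mitochondrial median was 0.07, and with each array centred on its median it was 0.19. No test of the difference between the organelles was made, and the peroxisomal list is short and leads with Ehhadh.

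**Figure D2:**
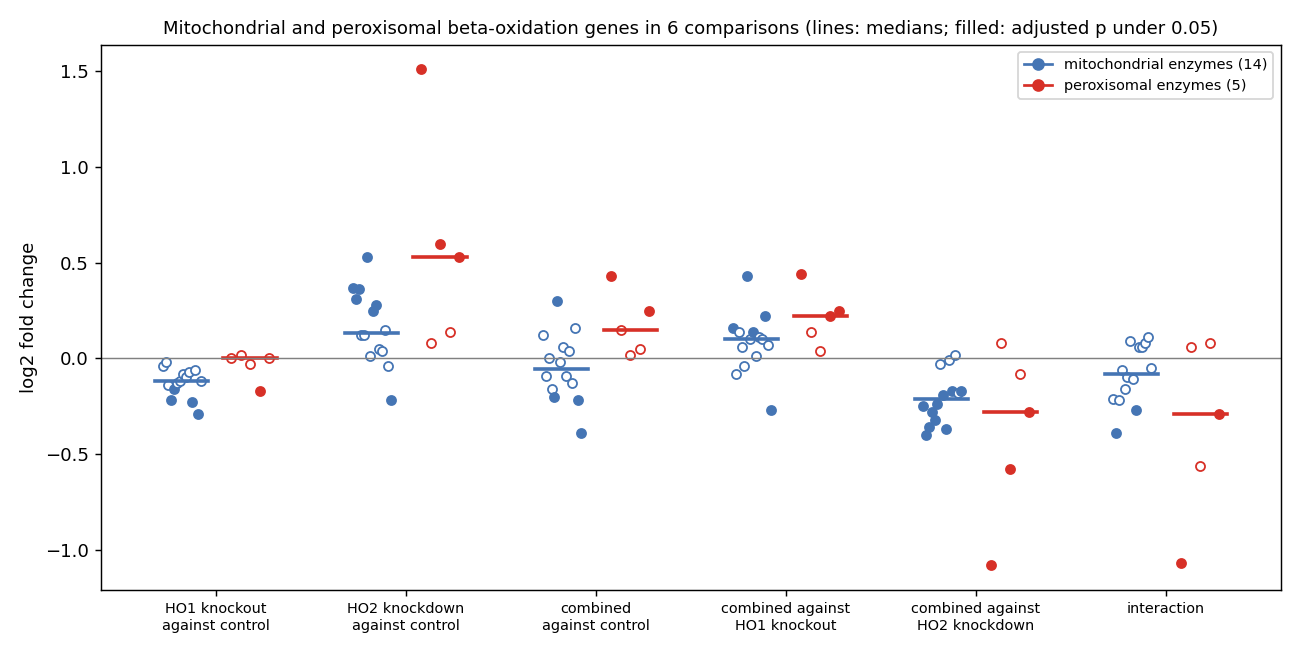
Log2 fold change (y axis) of the 14 mitochondrial and 5 peroxisomal enzymes in 6 comparisons (x axis), 1 point a gene, filled where called, with a line at each median. In HO2 knockdown against control the peroxisomal median is 0.53 and the mitochondrial median 0.14.

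Of the other members, Pdk4 and Bdh1 also rose. Pdk4 encodes a kinase that shuts the pyruvate dehydrogenase complex when fat is burned, and it read 12.78 and 12.81 in HO2 knockdown arrays against 11.80 and 11.82 in control arrays (log2 fold change 0.98, SE 0.0559, adjusted p = 1.82e-09). Bdh1, the mitochondrial enzyme that interconverts the ketone bodies acetoacetate and beta-hydroxybutyrate, read 8.23 and 8.28 in HO2 knockdown arrays against 7.87 and 7.68 in control arrays (log2 fold change 0.48, adjusted p = 0.000862). Not every PPARA target moved past the threshold. Angptl4, an inhibitor of lipoprotein lipase, had a difference of 0.11 (95% interval 0.02 to 0.21, adjusted p = 0.058). Fgf21, a fasting hormone of the liver, had one of -0.21 (95% interval -0.42 to 0.00, adjusted p = 0.116). Vnn1, a pantetheinase, had one of -0.05 (95% interval -0.17 to 0.06, adjusted p = 0.498).

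In cells labelled HO1-/-, the same shRNA was tested by setting combined against HO1 knockout arrays. There 13 members rose, 4 fell and 19 were not called, where 10.2% of all genes were called higher and 12.8% lower. The members' median was 0.12, against 0.01 over all genes. Slc27a2 read 11.17 and 11.15 in combined arrays against 8.72 and 8.80 in HO1 knockout arrays, a 5.26-fold rise (log2 fold change 2.40, adjusted p = 3.37e-13). Fabp1 read 7.28 and 7.62 in combined arrays against 5.58 and 5.86 in HO1 knockout arrays, a 3.32-fold rise (log2 fold change 1.73, adjusted p = 5.07e-08). Acot12 rose 2.03-fold, and with Slc27a2 and Fabp1 it made up the 3 members raised at least 2-fold, against 5 in HO1+/+ cells. Pdk4 read 12.24 and 12.28 in combined arrays against 11.18 and 11.39 in HO1 knockout arrays. Its log2 fold change was 0.98 (adjusted p = 2.85e-09), as in HO1+/+ cells. The 4 members that fell were Cd36, Etfdh, Eci2 and Vnn1. Hepatocyte markers were higher here too, 12 of 15 with none lower (median 0.57). So were stellate cell and fibroblast markers, 10 of 13 with 1 lower (median 0.44), and endothelial markers, 5 of 9 with none lower. The part of these lists in the members' rise was not tested.

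By pattern of calls, 11 members were higher with HO2 shRNA in both genotypes, namely Cpt1a, Acadm, Hadha, Ehhadh, Crot, Acot1, Acot2, Acot12, Slc27a2, Fabp1 and Pdk4. They were not equally firm in HO1-/- cells. There the call of Hadha (0.14, adjusted p = 0.0485) was lost without the mean-variance trend and with each array centred. That of Cpt1a (0.16, adjusted p = 0.0184) was lost without that trend, and that of Acot1 depended on single arrays. Etfdh was lower in both. A further 8 were called higher only in HO1+/+ cells, which is not itself a test of a difference. That test is the interaction, the log2 effect of HO2 shRNA in HO1-/- cells minus that in HO1+/+ cells. It was called below 0 for 10 members and above 0 for 0, where 7.57% of all genes were called below 0 and 4.67% above. Its median was -0.12 over the members and 0.05 over all genes. Centring the arrays changed the share of called genes with an interaction above 0 to 27.1%, against 38.2% as deposited. Marker lists had called interactions too. Below 0 were 6 of 15 hepatocyte markers, with none above (40.0%, beside 27.8% of the members). Above 0 were 6 of 16 macrophage markers, with 2 below, and 6 of 13 stellate cell and fibroblast markers, with 2 below. The part of these lists, and of the smaller loss of Hmox2 in combined cells, in the members' interactions was not tested.

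Ehhadh gave the clearest smaller rise. It read 9.18 and 9.09 in combined arrays, 8.72 and 8.67 in HO1 knockout arrays, 10.21 and 10.21 in HO2 knockdown arrays, and 8.63 and 8.76 in control arrays. HO2 shRNA raised it by 0.44 (adjusted p = 0.000323) in HO1-/- cells and by 1.51 in HO1+/+ cells, an interaction of -1.07 (SE 0.104, adjusted p = 9.85e-06). The combined arrays lay between the HO2 knockdown arrays and the rest, with no overlap. Cd36 had the largest interaction, -1.85 (SE 0.0853, adjusted p = 7.32e-09), and opposite directions. With HO2 shRNA it fell by 0.46 in HO1-/- cells, where it was already high (adjusted p = 2.84e-05), and rose by 1.40 in HO1+/+ cells. The remaining 8 interactions were smaller, -0.27 to -0.65.

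Fabp1 and Acot1 rose in both genotypes, but less in HO1-/- cells. Fabp1 had 7.28 and 7.62 in combined arrays, 5.58 and 5.86 in HO1 knockout arrays, 8.06 and 8.24 in HO2 knockdown arrays, and 5.75 and 5.78 in control arrays (interaction -0.65, SE 0.180, adjusted p = 0.0282). Acot1 had 8.87 and 8.75 in combined arrays, 8.54 and 8.31 in HO1 knockout arrays, 9.72 and 9.54 in HO2 knockdown arrays, and 8.60 and 8.84 in control arrays (interaction -0.53, SE 0.145, adjusted p = 0.0257). Crot did likewise, with 12.04 and 11.99 in combined arrays, 11.73 and 11.82 in HO1 knockout arrays, 12.34 and 12.26 in HO2 knockdown arrays, and 11.77 and 11.77 in control arrays (interaction -0.29, SE 0.0666, adjusted p = 0.0112). For these 3 genes the combined arrays lay below both HO2 knockdown arrays and above both HO1 knockout arrays. Cpt2, Hadhb and Pex11a were not called in HO1-/- cells and rose in HO1+/+ cells. Cpt2 had 10.88 and 10.79 in combined arrays, 10.89 and 10.93 in HO1 knockout arrays, 11.31 and 11.17 in HO2 knockdown arrays, and 10.95 and 10.91 in control arrays (interaction -0.39, SE 0.0815, adjusted p = 0.00563). Hadhb had 10.96 and 10.86 in combined arrays, 10.91 and 10.89 in HO1 knockout arrays, 11.27 and 11.29 in HO2 knockdown arrays, and 10.95 and 11.06 in control arrays (interaction -0.27, SE 0.0793, adjusted p = 0.0382). Pex11a had 9.60 and 9.58 in combined arrays, 9.77 and 9.66 in HO1 knockout arrays, 10.03 and 9.97 in HO2 knockdown arrays, and 9.75 and 9.79 in control arrays (interaction -0.36, SE 0.0928, adjusted p = 0.0194). For each of them the HO2 knockdown arrays were the 2 highest. Eci2 and Vnn1 fell in HO1-/- cells, by 0.18 (adjusted p = 0.0351) and 0.33 (adjusted p = 0.000216), and were not called in HO1+/+ cells. That fall of Eci2 was not called without the mean-variance trend or with each array centred on its median, while that of Vnn1 was called under every alternative. Eci2 had 10.34 and 10.34 in combined arrays, 10.53 and 10.52 in HO1 knockout arrays, 10.86 and 10.93 in HO2 knockdown arrays, and 10.70 and 10.85 in control arrays (interaction -0.30, SE 0.0847, adjusted p = 0.0309). Vnn1 had 11.17 and 11.07 in combined arrays, 11.46 and 11.44 in HO1 knockout arrays, 11.47 and 11.50 in HO2 knockdown arrays, and 11.47 and 11.60 in control arrays (interaction -0.28, SE 0.0766, adjusted p = 0.025).

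The interactions of Ehhadh and Cd36 were called under every alternative tried. Over all genes, 773 interactions were called below 0 without the mean-variance trend, against 1510 in the main fit. Among the members the count of 10 was 2 without that trend. It was 3 without HO2 knockdown replicate 1, 4 without combined replicate 2, and 5 or 6 without HO1 knockout replicate 1 or 2. For Slc27a2 (-0.03, adjusted p = 0.815), Pdk4 (-0.01, adjusted p = 0.963) and Acot2 (0.01, adjusted p = 0.913) the estimate was near 0.

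**Figure D3:**
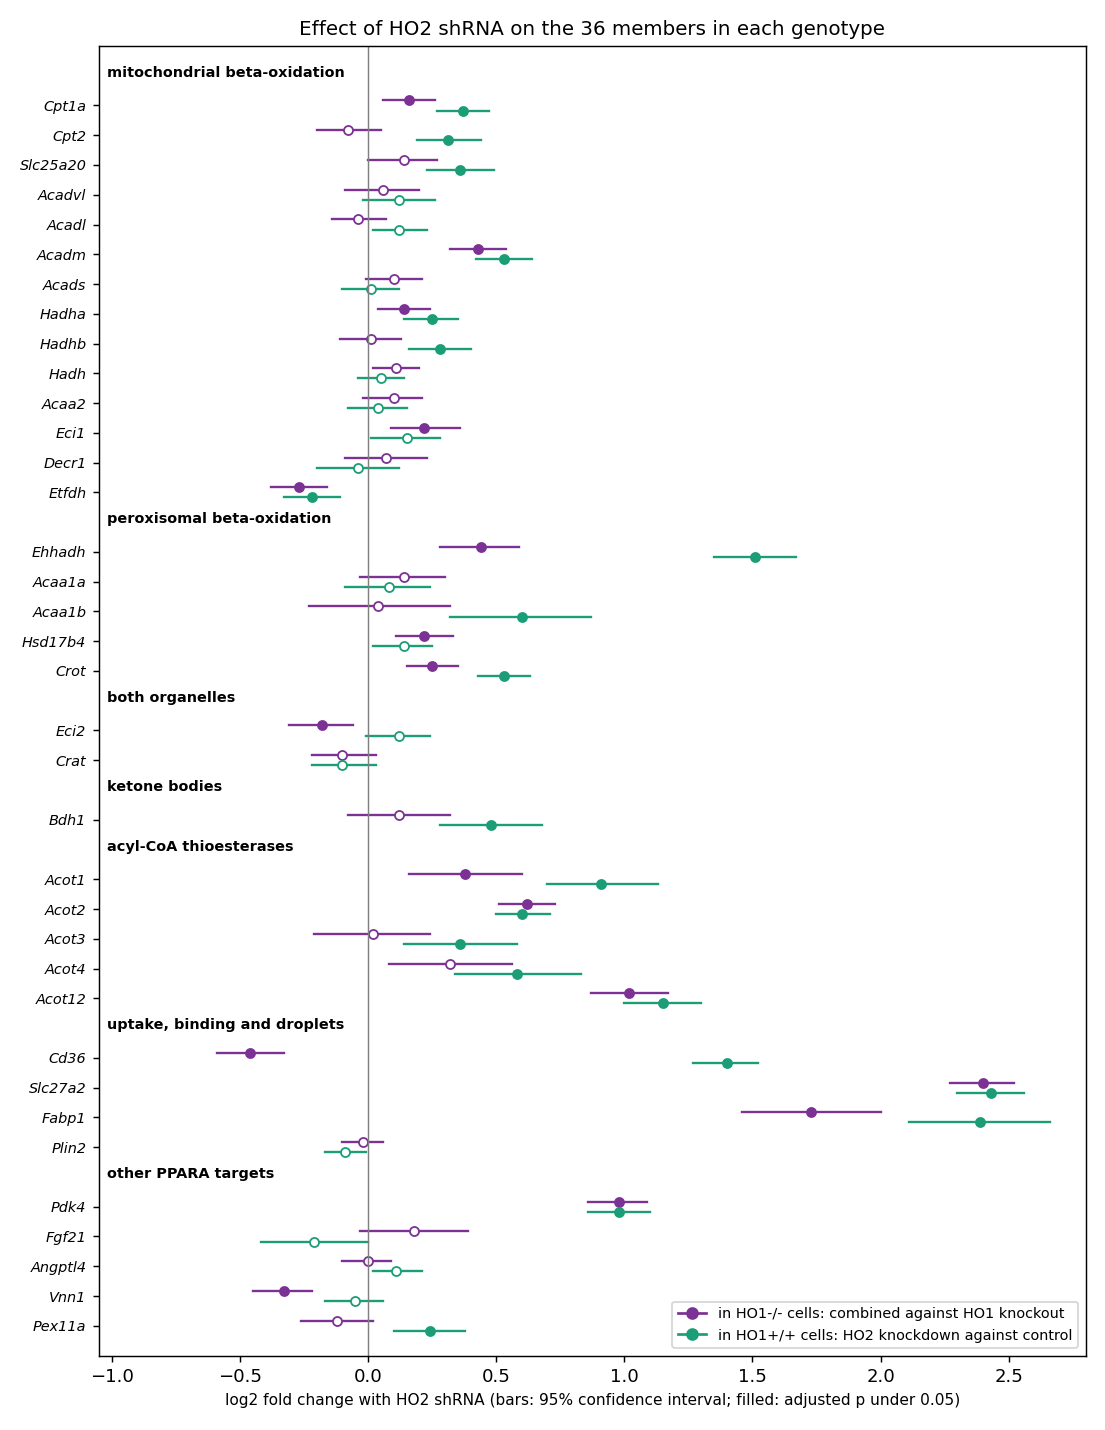
Log2 fold change with HO2 shRNA (x axis) of the 36 members by role (y axis), in HO1-/- cells above and HO1+/+ cells below on each row, with 95% intervals and filled points where called. The estimates of Slc27a2 and Pdk4 nearly coincide, Ehhadh has 0.44 in HO1-/- and 1.51 in HO1+/+ cells, and Cd36 lies on opposite sides of 0.

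Combined and HO2 knockdown cells, which share the HO2 shRNA and differ in the HO1 label, were also compared directly. Of the 36 members, 25 fell, 0 rose and 11 were not called, where 21.0% of all genes were called lower and 13.0% higher. The median was -0.27, against 0.02 over all genes. With each array centred on its median 24.1% of all called genes were higher, against 38.2% as deposited. Both comparisons use the HO2 knockdown arrays, so this count is not independent of the interaction. In the same comparison macrophage markers were higher, 11 of 16 with none lower (median 1.92). Hepatocyte markers were higher in 7 of 15 and lower in 2 (median 0.14). Stellate cell and fibroblast markers were lower in 7 of 13 and higher in 2, and endothelial markers were higher in 5 of 9 and lower in 1. The part of these lists in the members' fall was not tested. Ehhadh fell by 1.08 (adjusted p = 2.24e-08) and Acot1 by 0.83 (adjusted p = 1.88e-05). Among the enzymes, 10 of 14 mitochondrial ones fell (median -0.21) and 3 of 5 peroxisomal ones (median -0.28). Eci2, an isomerase for unsaturated chains found in both organelles, fell by 0.55 (adjusted p = 4.54e-06).

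In arrays labelled HO1 knockout with no HO2 shRNA, fewer members were called than with HO2 knockdown. Of the 36 members 1 rose, 10 fell and 25 were not called, where 5.62% of all genes were called higher and 7.20% lower. The median was -0.09, against -0.04 over all genes. Hepatocyte markers were higher in 11 of 15 and lower in 1 (median 0.28), while stellate cell and fibroblast markers were lower in 9 of 13 with none higher (median -0.35). The part of these shifts in the members' falls was not tested. Pdk4 read 11.18 and 11.39 in HO1 knockout arrays against 11.80 and 11.82 in control arrays (log2 fold change -0.53, adjusted p = 4.84e-06). Acot2 read 12.45 and 12.28 in HO1 knockout arrays against 12.82 and 12.84 in control arrays (log2 fold change -0.47, adjusted p = 6.02e-06). Plin2 read 13.10 and 13.14 in HO1 knockout arrays against 13.34 and 13.41 in control arrays (log2 fold change -0.25, adjusted p = 0.000188). These 3 falls, each with groups that did not overlap, were called under every alternative tried. The other 7 falls, of Acadvl, Acadl, Acaa2, Decr1, Hsd17b4, Eci2 and Slc27a2, were of 0.16 to 0.29 in size and were each lost under at least 1 alternative. The count of 10 was 4 without HO1 knockout replicate 2, and 5 without HO1 knockout replicate 1 or without control replicate 2. All 14 mitochondrial enzymes had estimates below 0 (median -0.12, 4 called), where 12616 of all 19937 genes did. The peroxisomal median was 0.00 with 1 called, Hsd17b4 (adjusted p = 0.0487). The calls of Acadvl, Acadl and Hsd17b4 were lost both without the mean-variance trend and with repeated quantile normalization.

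Cd36 was the 1 member called higher in HO1 knockout against control. It read 10.67 and 10.74 in combined arrays, 11.13 and 11.20 in HO1 knockout arrays, 10.60 and 10.64 in HO2 knockdown arrays, and 9.17 and 9.28 in control arrays. All 6 arrays labelled with the knockout, the knockdown or both lay above both control arrays, as they also did for Bdh1. Cd36 rose 3.83-fold in HO1 knockout against control (log2 fold change 1.94, SE 0.0603, adjusted p = 7.62e-13), while Bdh1 was not called there (0.17, adjusted p = 0.31). Combined and HO2 knockdown arrays differed by 0.08 (95% interval -0.05 to 0.21, adjusted p = 0.308). Macrophages also express Cd36, and macrophage markers moved with the HO1 label. Of 16 markers 11 were higher and 1 lower in HO1 knockout against control, with a median of 1.66. The list averaged 9.65 and 9.70 in combined arrays, 9.60 and 9.60 in HO1 knockout arrays, 7.73 and 7.85 in HO2 knockdown arrays, and 7.89 and 7.90 in control arrays. Adgre1, the gene of the macrophage antigen F4/80, was higher by 4.65 in HO1 knockout arrays. Cd5l, also among the 11, read 7.62 and 7.43 in HO1 knockout arrays against 6.30 and 5.93 in control arrays. By contrast Vsig4, a marker of resident liver macrophages, was lower by 1.07 (log2 fold change -1.07) and Clec4f, Timd4, Marco and Cd163 were not called. Their part in the rise of Cd36 with the HO1 label was not tested. In HO2 knockdown against control, where Cd36 also rose, 0 of the 16 markers were called higher and 3 lower. Endothelial cells express Cd36 as well, and of 9 endothelial markers 2 were higher in HO1 knockout and 4 in HO2 knockdown against control, with none lower in either. Their part was likewise not tested.

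**Figure D4:**
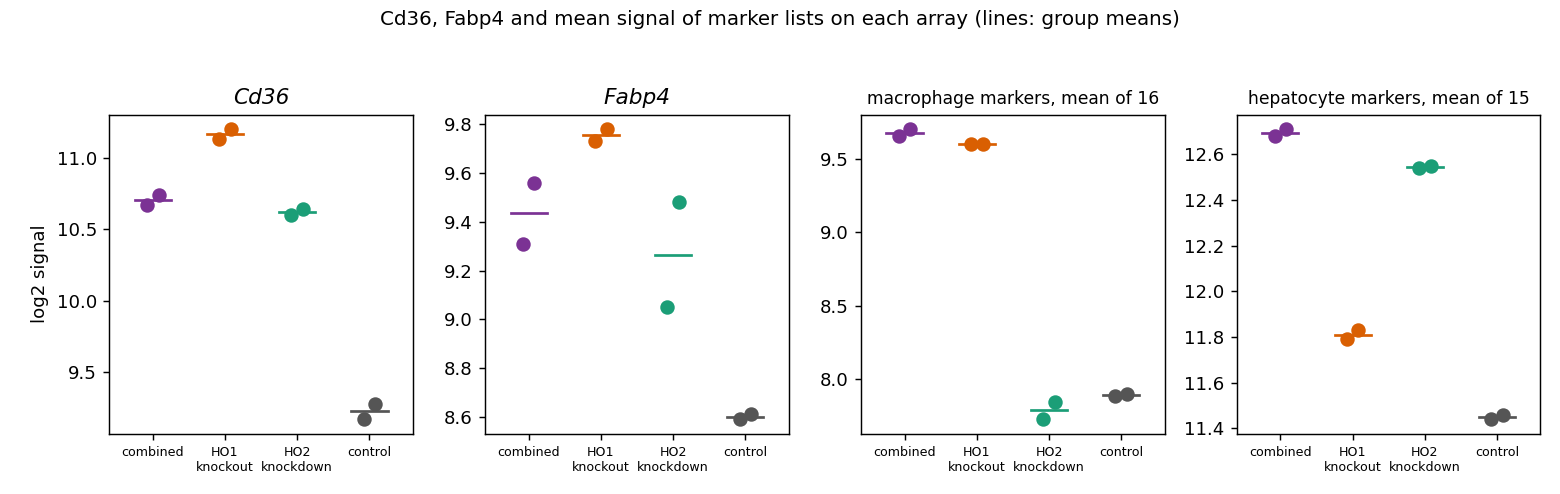
Log2 signal of Cd36 and Fabp4 and mean log2 signal of the macrophage and hepatocyte marker lists (y axes, not from 0) in the 4 groups (x axis), 1 point an array with a line at each group mean. The macrophage mean is high in both HO1-/- groups and low in HO2 knockdown arrays, at 7.73 and 7.85, where Cd36 reads 10.60 and 10.64.

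Against control, combined cells had 10 members higher, 6 lower and 20 not called, where 11.6% of all genes were called higher and 18.3% lower. The median was 0.04, against -0.02 over all genes. This comparison shares its control arrays with those of HO1 knockout and HO2 knockdown. Hepatocyte markers were higher in 13 of 15 and lower in 1 (median 1.07), and macrophage markers higher in 10 of 16 and lower in 1 (median 1.57). Endothelial markers were higher in 6 of 9 with none lower, and stellate cell and fibroblast markers higher in 3 of 13 and lower in 4. The part of these lists in the members' changes was not tested. Slc27a2 was 4.35-fold higher (log2 fold change 2.12, adjusted p = 1.95e-13), Fabp1 3.22-fold (1.69, adjusted p = 3.44e-08) and Cd36 2.79-fold (1.48, adjusted p = 1.55e-11). The falls were of Etfdh, Eci2, Vnn1, Plin2, Decr1 and Acadl. Vnn1 was low in the combined arrays alone, and fell by 0.42 against control (adjusted p = 1.64e-05). Across all comparisons 5 members were never called, namely Acads, Hadh, Acaa1a, Crat and Fgf21.

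Other genes of the pathway came from a second list, of which 62 of 73 were analysed. With HO2 knockdown, 29 of the 62 rose and 5 fell, with a median of 0.19, where 16.5% of all genes were called higher and 16.7% lower and the median over all genes was -0.07. Of 13 regulators 9 were higher and none lower, with a median of 0.64. Ppara itself read 9.65 and 9.53 in combined arrays against 8.81 and 8.78 in HO1 knockout arrays (log2 fold change 0.80, adjusted p = 7.12e-07). In HO1+/+ cells it read 9.69 and 9.80 in HO2 knockdown arrays against 8.98 and 9.07 in control arrays (log2 fold change 0.72, adjusted p = 1.59e-06). Its interaction, 0.08 (adjusted p = 0.666), was not called. Ppargc1a, a coactivator of PPARA, rose with HO2 shRNA by 0.59 in HO1-/- cells (adjusted p = 8.98e-06) and by 0.67 in HO1+/+ cells (adjusted p = 1.52e-06). Creb3l3, a liver transcription factor of fasting, rose by 0.72 in HO1-/- cells (adjusted p = 4.31e-06) and by 1.09 in HO1+/+ cells (adjusted p = 3.46e-08).

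Of 15 peroxisomal genes outside the members, 8 rose and 1 fell in the same comparison. Of 9 other mitochondrial genes 2 rose and 2 fell, close to the shares over all genes, and the lists were not tested against each other. Acox2, the oxidase for branched chains and bile acid intermediates, read 11.75 and 11.82 in HO2 knockdown arrays against 10.60 and 10.63 in control arrays (log2 fold change 1.18, adjusted p = 8.27e-10). Scp2, which encodes the peroxisomal sterol carrier and thiolase, read 11.30 and 11.20 in HO2 knockdown arrays against 10.04 and 10.18 in control arrays (log2 fold change 1.14, adjusted p = 4.88e-09). It rose less in HO1-/- cells, by 0.52, with an interaction of -0.62 (adjusted p = 0.000836). Of 12 peroxisome assembly genes 5 rose and none fell. Pex19, a chaperone for peroxisomal membrane proteins, read 10.56 and 10.51 in combined arrays, 10.50 and 10.43 in HO1 knockout arrays, 11.28 and 11.23 in HO2 knockdown arrays, and 10.52 and 10.61 in control arrays. Only the HO2 knockdown arrays stood apart (interaction -0.62, adjusted p = 0.000141). Among genes that fell with HO2 knockdown were Hsd17b10, a mitochondrial dehydrogenase (-0.40, adjusted p = 7.57e-06), Acsl5, an acyl-CoA synthetase (-0.35, adjusted p = 7.36e-05), and the fatty acid binding protein Fabp5 (-0.37, adjusted p = 8.7e-05). Fabp5 read 10.93 and 11.04 in HO2 knockdown arrays against 11.40 and 11.31 in control arrays, with no overlap. Over the 62 genes the interaction was called below 0 for 13 (21.0%) and above 0 for 2 (3.23%), where 7.57% of all genes were called below 0 and 4.67% above. Those above 0 were Hsd17b10 (0.38, adjusted p = 0.0017) and Etfb (0.22, adjusted p = 0.0484), the beta subunit of the electron transfer flavoprotein. Acsl4, an acyl-CoA synthetase for polyunsaturated chains, had an interaction of -0.52 (adjusted p = 4.52e-05).

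In HO1 knockout against control, 7 of the 62 other pathway genes rose (11.3%) and 8 fell (12.9%), where 5.62% of all genes were called higher and 7.20% lower. Fabp4 and Fabp5, fatty acid binding proteins that macrophages also express, rose by 1.16 and 0.76 (adjusted p = 1.74e-06 and 5.88e-08). Fabp4 read 9.31 and 9.56 in combined arrays, 9.73 and 9.78 in HO1 knockout arrays, 9.05 and 9.48 in HO2 knockdown arrays, and 8.59 and 8.61 in control arrays, so that, as for Cd36, both control arrays were lowest. Fabp5 read 12.06 and 12.16 in HO1 knockout arrays against 11.40 and 11.31 in control arrays. Abcd2, a peroxisomal transporter of very long chains, rose by 0.97 (adjusted p = 7.77e-06). Acacb, which makes the malonyl-CoA that blocks Cpt1a, fell by 0.48 there (adjusted p = 0.000567). With HO2 knockdown it rose by 0.97 (adjusted p = 1.47e-07). Also lower in HO1 knockout were Amacr, a racemase for branched chains (-0.34, adjusted p = 0.00174), and Slc22a5, a carnitine transporter (-0.39, adjusted p = 0.00615).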

How the data were processed

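Total RNA (300 ng an array) of 8 primary hepatocyte samples was hybridised to whole-transcript arrays, per the labels' protocols. For each probe set the authors deposited a log2 signal from robust multi-array averaging (RMA). The submitters' processing notes name affy, a Bioconductor package, and R 2.15.0. A chip definition file is not given in the sources used here. RMA forces array distributions to be alike, so changes are relative to other probe sets on an array, and array medians ran from 7.61 to 7.70. The number of arrays, 2 a group, limits the precision, and these values carry no detection call.

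Of 34760 probe sets, 21640 carried 1 gene symbol in the platform table and were used, while 1321 with several and 11799 with none were left out. The brightest probe set stood for each of 954 genes with several, leaving 19937 genes. Group means were fitted over all 8 arrays with limma (version 3.58.1, R 4.3.3), with empirical Bayes moderation and a mean-variance trend (4 residual and 11.2 prior degrees of freedom). All p-values are two-sided and adjusted by Benjamini-Hochberg over the 19937 genes, called under 0.05, with moderated SEs and intervals not adjusted for multiplicity. Lists are described by counts and medians, with no test. The script was tested on simulated data.

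The members and lists were chosen with earlier results of these data known. Genes named were the 4 members with the smallest p in HO1 knockout, HO2 knockdown and the interaction, all members with a called interaction, 3 other pathway genes a direction, and Ppara and Ppargc1a. Other members are given by role, and the macrophage markers named singly were chosen after their values were seen. Promoters and coordinates came from RefSeq, GRCm38.p6. Other settings tried were 2 variance models, array quality weights, 2 scalings, a filter on dim genes, other probe set choices, fewer groups in the fit, a replicate block, and leaving out each array.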

Additional observations from a re-analysis of the deposited data

Results flagged for a closer look

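For 10 members the effect of HO2 shRNA differed between genotypes by the interaction term of the limma fit (effect in HO1-/- cells minus that in HO1+/+ cells, log2 scale). For Cd36 it was -1.85 (adjusted p = 7.32e-09), and for Ehhadh -1.07 (adjusted p = 9.85e-06). For Cpt2 it was -0.39 (adjusted p = 0.00563), for Crot -0.29 (adjusted p = 0.0112) and for Pex11a -0.36 (adjusted p = 0.0194). For Vnn1 it was -0.28 (adjusted p = 0.025), for Acot1 -0.53 (adjusted p = 0.0257) and for Fabp1 -0.65 (adjusted p = 0.0282). For Eci2 it was -0.30 (adjusted p = 0.0309) and for Hadhb -0.27 (adjusted p = 0.0382). Of these genes Cpt2, Hadhb and Pex11a had no called change with HO2 shRNA in HO1-/- cells, while Eci2 and Vnn1 fell in HO1-/- cells and had no called change in HO1+/+ cells.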

How the results depend on the processing

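No member changed sign with a call under any alternative. Without the mean-variance trend, 5 members were lower in HO1 knockout against control instead of 10, and 2 had a called interaction below 0 instead of 10. Over all genes the same counts were 890 instead of 1436 and 773 instead of 1510. Fitting only the groups compared left 6 lower in HO1 knockout. With each array centred on its median, the mitochondrial median was 0.19 in HO2 knockdown against control and -0.27 in combined against HO2 knockdown. With repeated quantile normalization it was 0.07 in HO2 knockdown against control, -0.14 in combined against HO2 knockdown and 0.00 for the interaction, 2 members were lower in HO2 knockdown, and 1 (Cd36) was higher in combined against HO2 knockdown. Leaving out 1 array at a time gave 4 to 9 members lower in HO1 knockout, 17 to 21 higher and 1 lower in HO2 knockdown, 17 to 27 lower in combined against HO2 knockdown, 3 to 12 interactions below 0 and 0 to 1 above 0. The peroxisomal median in HO2 knockdown ranged over 0.35 to 0.57. Over pairs of a member and a comparison, leaving out each array in turn ended 112 calls, added 20 and left 1596 pairs as they were, called or not. Arrays with the same replicate number showed no strong shared shift (correlations of deviations -0.261 to 0.122). The labels do not say whether they share an animal or culture, so pairing in the experiment is not known. A replicate block left 213 pairs of a member and a comparison as they were, added 2 calls and ended 1 (Hsd17b4 in HO1 knockout). Causes were not tested. With 2 arrays a group, small differences near the threshold depend on single arrays, and dim probe sets such as that of Fabp1 understate folds.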
